A study of Schizosaccharomyces pombe with 6 samples.

Results

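The regions described are the protein-coding transcription units of the fission yeast Schizosaccharomyces pombe that the deposited annotation splits by 4 or more introns. A transcription unit is a stretch of one strand, from transcript start to transcript end, given by its coordinates in the deposited unit table. Units were taken where the class was ORF-TU, a unit with 1 coding gene, and the number of introns was at least 4. This gave 290 units of 4105 ORF-TU units and of 5484 units in all. None of the 290 holds more than 1 gene, and 44 units of several genes with 4 or more introns were not included. The rule uses annotation alone and no measured change.

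The study measured newly made RNA while the elongation factor Spt5 was being removed. All libraries came from the haploid h- strain ASP167, in which spt5 is expressed from the thiamine-repressible Pnmt81 promoter and carries a V5-IAA17 degron tag, while skp1 fusions of OsTIR1 and AtTIR1 are expressed from Padh15 at ade6, in a ura4-D18 background. Cells grew in EMM at 30 °C, thiamine and the auxin NAA were added at 0 h, and the RNA made in a 10 min pulse of 5 mM 4-thiouracil was sequenced at 0, 2.5 and 4.5 h, with 2 biological replicates at each time. Every library carries the tagged allele and both TIR1 fusions, and no untreated time course and no spike-in were used here, so an effect of losing Spt5 cannot be told apart from one of thiamine, of NAA or of the hours of growth, and each change is relative to the other units of the library.

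Introns are removed from pre-mRNA by the spliceosome, which recognises the 5′ end of the intron, a branch point near its 3′ end and the 3′ end itself. Most removal happens while RNA polymerase II is still transcribing, so intron-rich genes are a place where elongation and splicing meet. Spt5 travels with RNA polymerase II, helps it stay on the template, and serves as a platform for factors that act on the nascent RNA. Fission yeast introns are short, and most genes have few or none.

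The members carried 1466 introns. There were 149 units with 4 introns, 65 with 5, 39 with 6, 19 with 7 and 18 with 8 or more, the last up to 15. The threshold fell between these 149 units with 4 introns and 297 units with 3. Member introns had a median length of 50 bases (range 32 to 817), against 69 bases for the introns of 898 coding units with 1 intron. Introns took up a median of 15.9% of the unit. Of the 1466 introns, 1461 began with GT and ended with AG, 2 began with GC and ended with AG, and 3 read CT to AC, the reverse complement of a GT to AG intron. The RefSeq annotation holds 1439 of the introns (98.2%) with the same ends.

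A few introns show what these units hold, in RefSeq sequence by the coordinates of the deposited table (ASM294v2). They come from the member with the largest rise (fau1), the longest member that rose (prr1), the symbol-bearing member with the largest fall at 4.5 h (arb1), the member with the most introns (trt1), and the fastest member by the deposited splicing time (par2) and the slowest with a gene symbol (vma3). Capitals mark the first 6 bases, the last 3 bases and, where present, the branch-point motif CTAAC.
fau1 intron 1, II:2931063-2931107, minus strand: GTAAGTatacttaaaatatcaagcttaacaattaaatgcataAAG
fau1 intron 4, II:2930499-2930549, minus strand: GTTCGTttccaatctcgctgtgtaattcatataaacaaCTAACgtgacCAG
prr1 intron 1, I:3666037-3666133, plus strand: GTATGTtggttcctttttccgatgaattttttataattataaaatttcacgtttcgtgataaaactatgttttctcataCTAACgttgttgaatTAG
arb1 intron 2, I:1900290-1900328, plus strand: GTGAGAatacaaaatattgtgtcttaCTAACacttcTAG
trt1 intron 4, II:2065176-2065211, minus strand: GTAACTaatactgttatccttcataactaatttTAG
trt1 intron 5, II:2064744-2064782, minus strand: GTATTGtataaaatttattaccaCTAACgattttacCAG
par2 intron 1, I:1336321-1336388, plus strand: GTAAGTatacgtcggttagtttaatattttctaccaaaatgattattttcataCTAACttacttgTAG
par2 intron 4, I:1337347-1337401, plus strand: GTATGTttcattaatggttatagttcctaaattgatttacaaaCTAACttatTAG
vma3 intron 1, I:4954651-4954695, plus strand: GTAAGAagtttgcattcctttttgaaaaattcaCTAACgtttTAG

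The 5′ splice sites GTAAGT and GTATGT, printed in par2, opened 24.5% and 17.4% of the member introns. In single-intron units the shares were 35.7% and 23.3%, and over all 4912 annotated introns they were 27.7% and 20.3%. CTAAC stood inside 37.2% of member introns, 53.2% of the introns of single-intron units and 45.6% of all introns, searched over the whole intron on the strand of the unit. Among introns of 40 to 60 bases, where window length differs little, CTAAC was in 33.0% of member introns against 43.2% in single-intron units, and GTAAGT opened 20.6% against 31.2%. Member introns ended in TAG in 65.2% of cases and single-intron units in 76.1%. The variant CTAAT, which stands near the 3′ end of trt1 intron 4, was in 29.8% of member introns and 30.5% of those of single-intron units. A letter match is a description and does not mark a used site.

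**Figure D1:**
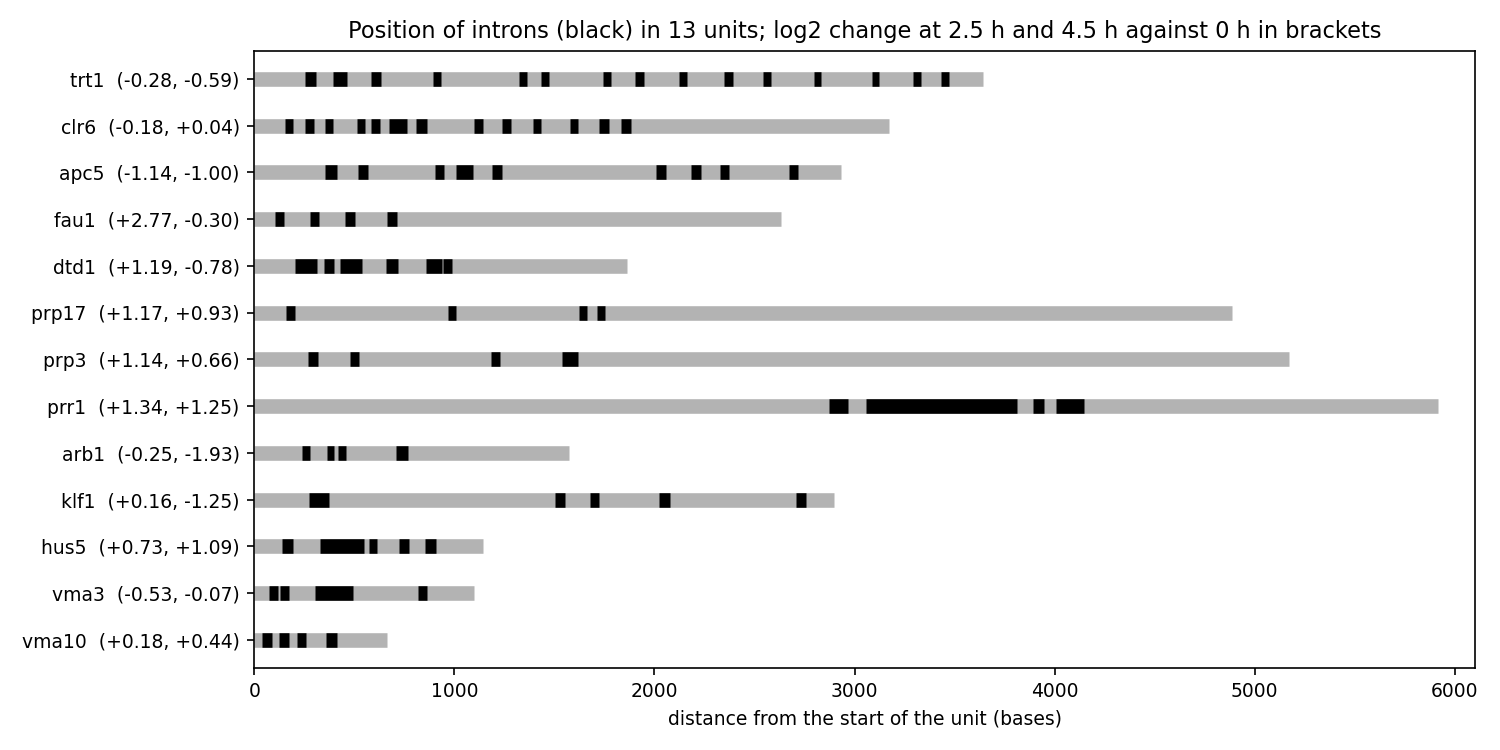
Position of introns (black) along 13 units, in bases from the start of each unit, with the log2 change at 2.5 h and 4.5 h against 0 h in brackets. In trt1 the 15 introns are spread over the unit, while in prr1 all 4 lie behind a 5′ leader of 2840 bases.

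The 6 libraries held 11525663 to 35673601 counts in units. The 290 members took 2.67% and 2.78% of the counts at 0 h, 2.64% and 2.57% at 2.5 h, and 2.56% and 2.49% at 4.5 h. The lowest count of any member in any library was 15, and all 290 passed the filter on low counts, among 5208 units tested. The intronless spt5 gene itself stood at 1040 and 721 CPM (counts scaled by TMM-normalised library size, so that libraries of different depth compare) at 0 h, 121 and 108 at 2.5 h, and 98.2 and 92.3 at 4.5 h. The pair of 0 h libraries stood farther apart than the other pairs: 39 members (13.4%) differed by 2-fold or more between them, against 2 at 2.5 h and 0 at 4.5 h. Over all units those shares were 10.8%, 1.21% and 0.653%.

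Counts per kb of the whole unit, introns included, had a lower median in the members than in single-intron and intronless units. At 0 h the members had a median of 24.4 CPM per kb of unit (quartiles 13.9 and 42.0), against 42.3 for single-intron units and 51.2 for 2062 tested intronless units, with quartile ranges that overlapped. The highest per kb at 0 h were gnd1, phosphogluconate dehydrogenase of the pentose phosphate pathway, at 502, and rpb1, the largest subunit of RNA polymerase II, at 252. The lowest were rev7, a subunit of the translesion DNA polymerase zeta, at 2.80 and fau1 at 2.95. The median of log2 CPM in members, minus that in intronless units, was -0.87 and -0.96 at 0 h, -0.88 and -0.95 at 2.5 h, and -0.99 and -1.05 at 4.5 h. The 4.5 h values were the lowest, but the nearest of them lay closer to 0 h replicate 2 than the 0 h libraries lay to each other.

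At 2.5 h rises and falls among the members were about equal in number. In the quasi-likelihood fit of edgeR, with p-values adjusted by Benjamini-Hochberg over all 5208 units, 13 members (4.48%) rose and 12 (4.14%) fell, where 12.3% of all units rose and 5.11% fell. In either direction that is 8.62% of the members against 17.4% of all units and 13.5% of ORF-TU units, of which 7.28% rose and 6.18% fell. The median log2 change of the members was -0.10, against 0.01 over all units and -0.08 over all ORF-TU units. Of the 13 that rose, the largest was fau1, a 5-formyltetrahydrofolate cyclo-ligase of folate metabolism, followed by prr1, a stress-responsive transcription factor, and dtd1, which removes D-amino acids from tRNA. The split of higher and lower calls moved with the scaling. With DESeq2's size factors in the same fit 12 (4.14%) were higher and 17 (5.86%) lower, beside 11.2% and 6.16% of all units. With DESeq2 itself 15 (5.17%) and 28 (9.66%) were, beside 12.9% and 8.61% of all units. Leaving out a 2.5 h or 4.5 h library lowered the number of edgeR calls, among the members and over all units alike, and leaving out a 0 h library raised it. Without the first or the second 2.5 h library the members' median was -0.21 and -0.08, beside -0.02 and 0.03 over all units. Without the first or the second 0 h library it was -0.06 and -0.23, beside 0.02 and -0.01. Without either 4.5 h library it was -0.11, beside 0.01. In pairs of single libraries the median change was -0.19 and -0.25 against 0 h replicate 1 and 0.08 and 0.04 against 0 h replicate 2. Over all units it was -0.01 and -0.02, then 0.12 and 0.11, so the members' median lay below that of all units in each pair.

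The fau1 unit stood at 9.04 and 6.48 CPM at 0 h, 48.5 and 57.5 at 2.5 h, and 6.24 and 6.36 at 4.5 h. Only the 2.5 h libraries were high, and they did not overlap with the other 4. Such a separation holds by choice for the compared times of every named rise or fall, since the naming rule requires it. The log2 change was 2.77 against 0 h (SE 0.24, adjusted p = 0.00468) and -3.07 from 2.5 to 4.5 h (SE 0.24, adjusted p = 0.0151). The unit, II:2928578-2931212 on the minus strand, has its 4 introns in its first part, and 97.4% of its length lies opposite acl1 on the other strand. The acl1 unit averaged 494, 387 and 348 CPM at the 3 times and was not called (adjusted p = 0.574 at 2.5 h).

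The prr1 unit was one of 4 members that rose at both times, with prp17, prp3 and SPCC5E4.10c, an uncharacterised protein named here although it has no symbol. Both comparisons share the 0 h libraries, so they are not independent. prr1 stood at 619 and 668 CPM at 0 h, 1720 and 1540 at 2.5 h, and 1710 and 1360 at 4.5 h. Both later times lay above 0 h in every library, as the naming rule required. The log2 change at 2.5 h was 1.34 with an SE of 0.19 and an adjusted p of 0.00931. At 4.5 h it was 1.25 with the same SE and an adjusted p of 0.0114. At 5915 bases it is among the 3 longest members, and its introns are 97, 756, 53 and 143 bases long.

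The splicing factor genes prp17 and prp3 rose at both times. The prp17 unit, which encodes a WD-repeat protein of the Prp19 complex, stood at 121 and 112 CPM at 0 h, 221 and 300 at 2.5 h, and 210 and 231 at 4.5 h. The prp3 unit, which encodes a subunit of the U4/U6 and U5 small nuclear ribonucleoproteins, stood at 136 and 158, then 294 and 353, then 224 and 240 CPM. Neither had a later library that overlapped with 0 h, as the naming rule required. At 2.5 h the log2 change was 1.17 for prp17 (SE 0.19, adjusted p = 0.0121) and 1.14 for prp3 (SE 0.17, adjusted p = 0.00987). At 4.5 h prp17 stood 0.93 above 0 h (adjusted p = 0.0240) and prp3 0.66 (adjusted p = 0.0433), with the same SEs. Both lie largely opposite a coding unit on the other strand, fab1 for prp17 over 4347 of its 4887 bases and uso1 for prp3 over 3546 of its 5173 bases. Neither fab1 (adjusted p = 0.471) nor uso1 (0.224) was called at 2.5 h. Units on the other strand were called at other named members: ppr4, opposite dtd1, at 4.5 h (log2 0.82, adjusted p = 0.0273), SPAC644.13c, opposite cdc5, at 2.5 h (log2 0.83, adjusted p = 0.0302), and cys11, opposite clr6, at 2.5 h (log2 -0.73, adjusted p = 0.0184). So were noncoding units opposite cdc5 (log2 3.46 and 3.74 at 2.5 h), spx2 (3.17) and mug161 (1.49). Their part in the members' values was not tested.

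The other named rises at 2.5 h were dtd1, mug161, alp1 and ptb1. The dtd1 unit stood at 32.2 and 17.7 CPM at 0 h, 53.7 and 59.6 at 2.5 h, and 14.5 and 14.4 at 4.5 h. It was highest at 2.5 h and lowest at 4.5 h in every library, with a log2 change of 1.19 at 2.5 h (SE 0.29, adjusted p = 0.0406) and then of -1.97 from 2.5 to 4.5 h (SE 0.30, adjusted p = 0.0249). The alp1 unit, which encodes tubulin-folding cofactor D, was at 106 and 125, then 207 and 246, then 99.7 and 91.1 CPM, a log2 change of 0.98 at 2.5 h (SE 0.16, adjusted p = 0.0135) and of -1.25 from 2.5 to 4.5 h (SE 0.16, adjusted p = 0.0193). Both lay below the 0 h libraries at 4.5 h, by log2 differences of -0.78 and -0.27 that did not pass the test (adjusted p = 0.118 and 0.290). The CwfJ-family splicing factor mug161 (log2 1.01) and ptb1, a subunit of the enzyme that adds lipid anchors to Rab GTPases, (log2 0.92) also rose at 2.5 h.

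The named falls at 2.5 h included osh6, apc5 and pdx1. The osh6 unit, which encodes an oxysterol-binding protein, stood at 542 and 468 CPM at 0 h, 241 and 212 at 2.5 h, and 380 and 407 at 4.5 h. It was lowest at 2.5 h, with a log2 change of -1.16 (SE 0.16, adjusted p = 0.00873), and it rose from 2.5 to 4.5 h by 0.80 (SE 0.16, adjusted p = 0.0385). The apc5 unit has 9 introns and encodes a scaffold subunit of the anaphase-promoting complex. It was at 34.3 and 42.6, then 18.2 and 16.7, then 18.3 and 20.1 CPM, a log2 change of -1.14 at 2.5 h (SE 0.19, adjusted p = 0.0137), and at 4.5 h its fitted level was 0.5 of that at 0 h (adjusted p = 0.0203). All 4 later libraries lay below both 0 h libraries, which the naming rule required of those at 2.5 h. The pyruvate dehydrogenase component pdx1 fell in the same way (log2 -1.12 and -1.09), as did the mannosyltransferase smp3 (log2 -0.80 and -1.21).

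**Figure D2:**
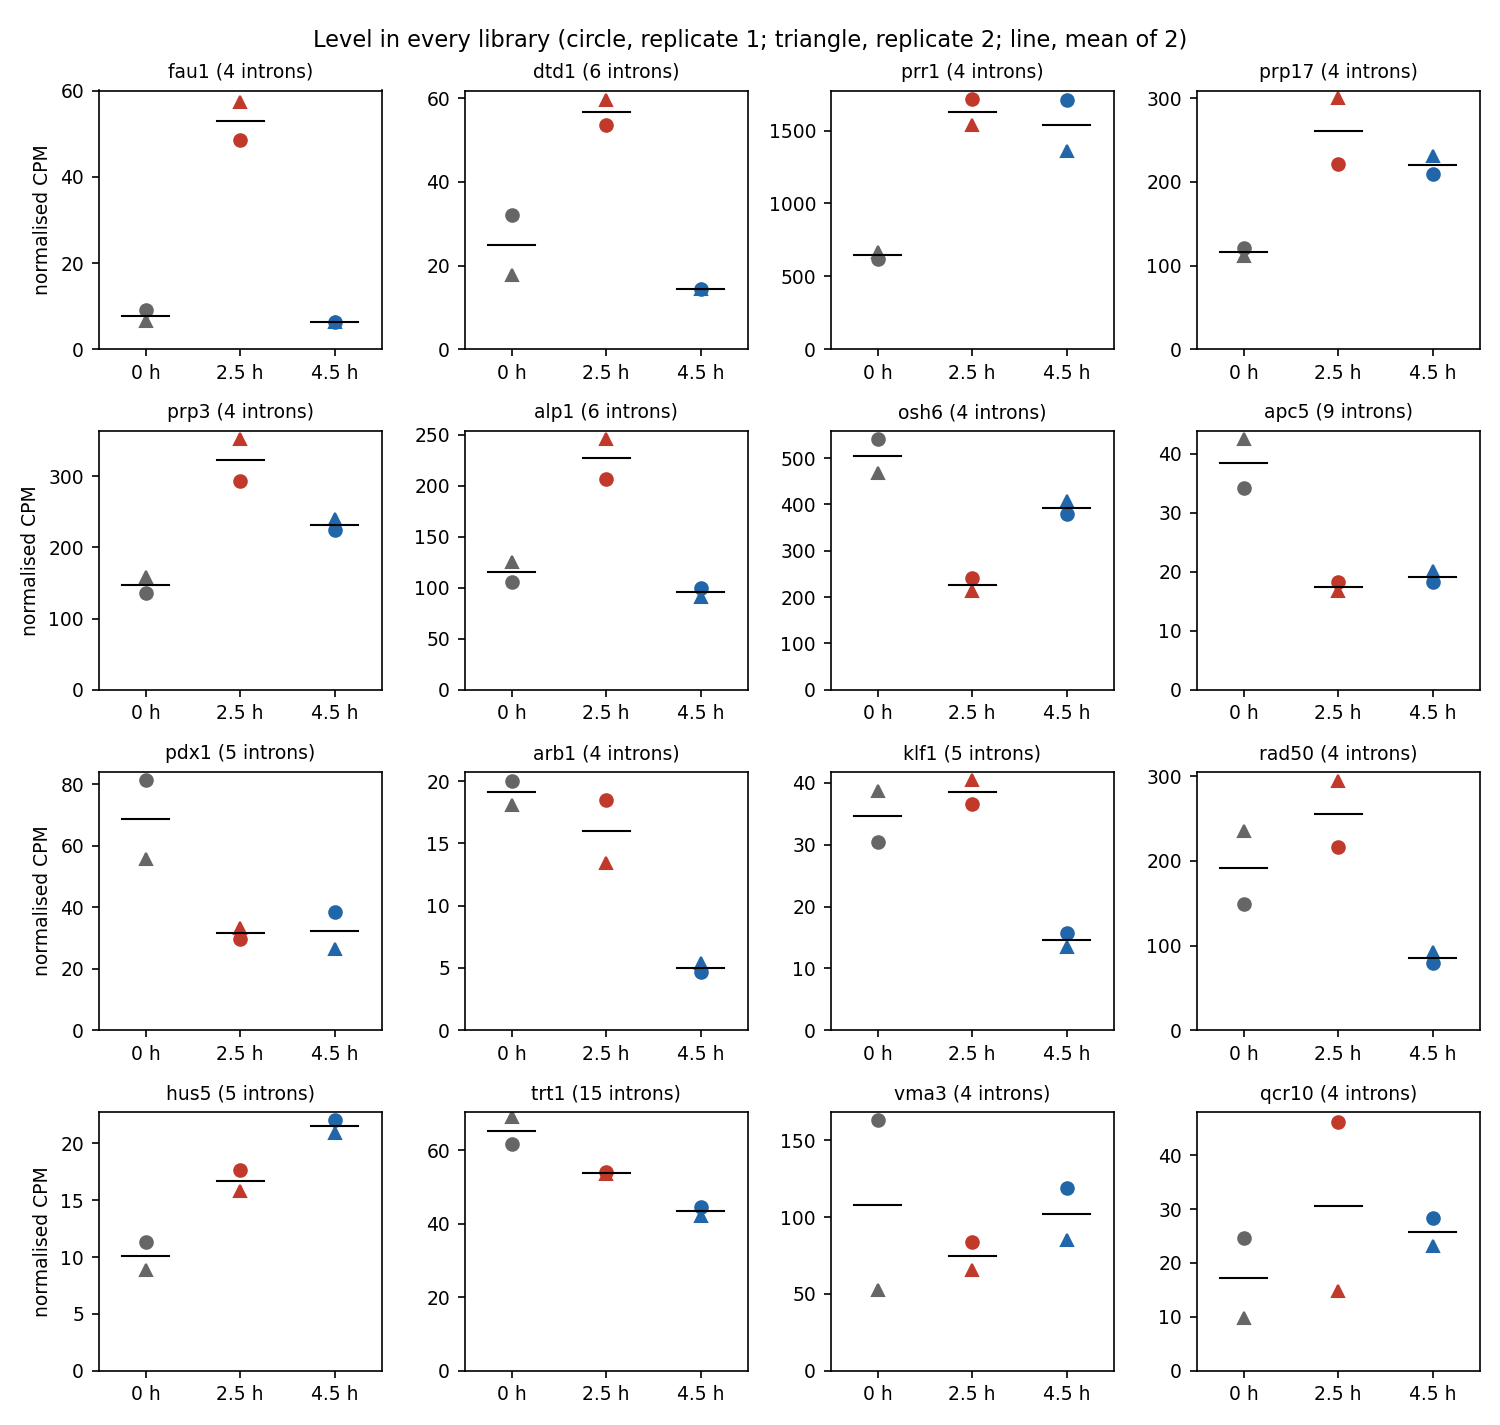
Normalised CPM of 16 members in each of 6 libraries (circle, replicate 1; triangle, replicate 2; line, mean of 2), each panel with its own axis from 0. fau1, dtd1 and alp1 are high at 2.5 h alone, prr1, prp17 and prp3 stay above 0 h at both times, and vma3 and qcr10 have replicates far apart.

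The largest fall of any member against 0 h, at either time, was in SPCC1529.01, an annotated transporter without a symbol and so outside the naming rule. It stood at 131 and 140 CPM at 0 h, 33.9 and 32.9 at 2.5 h, and 32.6 and 26.9 at 4.5 h. Its log2 change against 0 h was -2.02 (SE 0.16, adjusted p = 0.00468) and then -2.19 (SE 0.17, adjusted p = 0.00383). The 0 h libraries stood far above all 4 later ones. The GTPase gene rho4 (log2 -1.07) and the centaurin gene cnt5 (log2 -0.86) fell at 2.5 h, and rpb1, at 1490 and 1340 CPM at 0 h and 950 and 796 at 2.5 h, fell by 0.70 on the log2 scale (SE 0.18, adjusted p = 0.0440). The meiotic drive genes wtf4 (log2 -1.21) and wtf19 (0.499 of the 0 h level) were also called lower at 2.5 h, and wtf25 (log2 -1.27) at 4.5 h. The wtf genes are a family of near-identical copies that can share reads, so those 3 values are uncertain.

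At 4.5 h the balance of calls was to the lower side. By the same test 7 members (2.41%) rose and 37 (12.8%) fell, where 10.1% of all units rose and 7.80% fell. In either direction that is 15.2% of the members against 17.9% of all units. Of ORF-TU units, 7.23% rose and 8.67% fell. The members' median log2 change was -0.18, against 0.02 over all units and -0.04 over all ORF-TU units. In the 4 pairs of single libraries it was -0.28 and -0.33 against 0 h replicate 1 but 0.01 and 0.01 against 0 h replicate 2, where the median over all units was -0.01 in both and 0.09 and 0.12. In fits without the first or the second 0 h library the members' median was -0.12 and -0.30, against 0.01 and 0.01 over all units. Without the first or the second 4.5 h library it was -0.21 and -0.18, against 0.01 and 0.01. Without either 2.5 h library it was -0.18, against 0.02. The share of members called lower exceeded that over all units without either 0 h library. With only the 2 time points compared the shares lay close: 10 members (3.45%) fell and 2 (0.69%) rose, beside 2.84% and 4.18% of all units. Without a 4.5 h library hardly any unit was called, so the calls there cannot show whether an excess of falls among the members held.

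Among members called lower at 4.5 h and not called at 2.5 h were arb1, klf1 and rad50. The arb1 unit encodes a partner of Argonaute in the RNA interference pathway, and stood at 20.0 and 18.1 CPM at 0 h, 18.5 and 13.4 at 2.5 h, and 4.64 and 5.36 at 4.5 h. Its log2 change was -1.93 against 0 h (SE 0.24, adjusted p = 0.00752) and -1.68 from 2.5 to 4.5 h (SE 0.25, adjusted p = 0.0238). The klf1 unit, a zinc-cluster transcription factor gene, was at 30.4 and 38.7, then 36.6 and 40.5, then 15.8 and 13.4 CPM, a log2 change of -1.25 (SE 0.20, adjusted p = 0.0135) at 4.5 h. The rad50 unit, of the Mre11-Rad50-Nbs1 complex that acts at DNA breaks, was at 149 and 236, then 216 and 295, then 78.9 and 91.9 CPM, a log2 change of -1.17 (SE 0.27, adjusted p = 0.0338). In each of these units both 4.5 h libraries lay below the other 4, a separation that the naming rule required in whole or in part.

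The other named falls at 4.5 h were the carboxypeptidase gene ecm14 (log2 -1.42), the ubiquitin-conjugating enzyme gene ubc1 (log2 -1.38), rev7 (log2 -1.28) and spx2, which encodes an SPX and EXS domain protein (log2 -1.19, SE 0.15, adjusted p = 0.00747). Of the 4 introns of ubc1, RefSeq does not hold intron 4 with the same ends. The rev7 level was low, at 3.51 and 2.46 CPM at 0 h and 1.37 and 1.07 at 4.5 h. Rises at 4.5 h beside the 4 that rose at both times were in hus5, the SUMO-conjugating enzyme, and in the GTPase genes rho2 and spg1. The hus5 unit stood at 11.3 and 8.84 CPM at 0 h, 17.7 and 15.8 at 2.5 h, and 22.1 and 20.9 at 4.5 h, a log2 change of 1.09 (SE 0.21, adjusted p = 0.0203). Its libraries did not overlap between times, which the naming rule required for 4.5 h against 0 h. The log2 changes of rho2 and spg1 were 0.71 and 0.57.

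From 2.5 to 4.5 h 3 members (1.03%) rose and 25 (8.62%) fell, where 3.34% of all units rose and 6.91% fell. In either direction that is 9.66% of the members against 10.3% of all units. Of ORF-TU units, 3.93% rose and 6.23% fell. The median log2 change was -0.08, against -0.01 over all units. Of the 13 members that rose at 2.5 h, 5 fell in this comparison, namely alp1, cca1, dtd1, fau1 and mgs1, and of the 12 that fell at 2.5 h, osh6 and wdr74 rose. These comparisons share the 2.5 h libraries. The remaining rise was in cdc5, a core factor of the spliceosomal Prp19 complex, at 113 and 139 CPM at 0 h, 98.7 and 103 at 2.5 h, and 173 and 185 at 4.5 h (log2 0.83, SE 0.15, adjusted p = 0.0347). With library totals as the scaling 0 were higher and 21 (7.24%) lower, beside 0.806% and 5.49% of all units. With DESeq2 11 (3.79%) were higher and 41 (14.1%) lower, beside 6.06% and 10.4% of all units. Without any one of the 2.5 h or 4.5 h libraries edgeR called no unit, and the members' median ran from -0.12 to -0.04, beside -0.02 to 0.01 over all units. Without the first or the second 0 h library the members' median was -0.07 and -0.06, beside -0.01 and 0.00 over all units. With the 2 time points fitted alone 38 members (13.1%) were higher and 72 (24.8%) lower, beside 18.3% and 20.5% of all units.

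By number of introns, the lower values at 4.5 h were seen in each class from 4 upward. The median log2 change at 4.5 h was -0.10 for 4 introns, -0.23 for 5, -0.28 for 6, -0.20 for 7 and -0.27 for 8 or more. It was -0.03 for 3 introns, -0.01 for 1 and -0.05 for 0. Just outside the threshold, the 297 units with 3 introns had 23 called higher (7.74%) and 18 lower (6.06%) at 4.5 h, and just inside it the 149 units with 4 introns had 5 (3.36%) and 17 (11.4%). At 2.5 h the medians lay between -0.17 and -0.05 in all classes from 0 to 8 or more introns. Across the 290 members the rank correlation of change with intron number was weak at -0.03, -0.09 and -0.05 in the 3 comparisons.

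**Figure D3:**
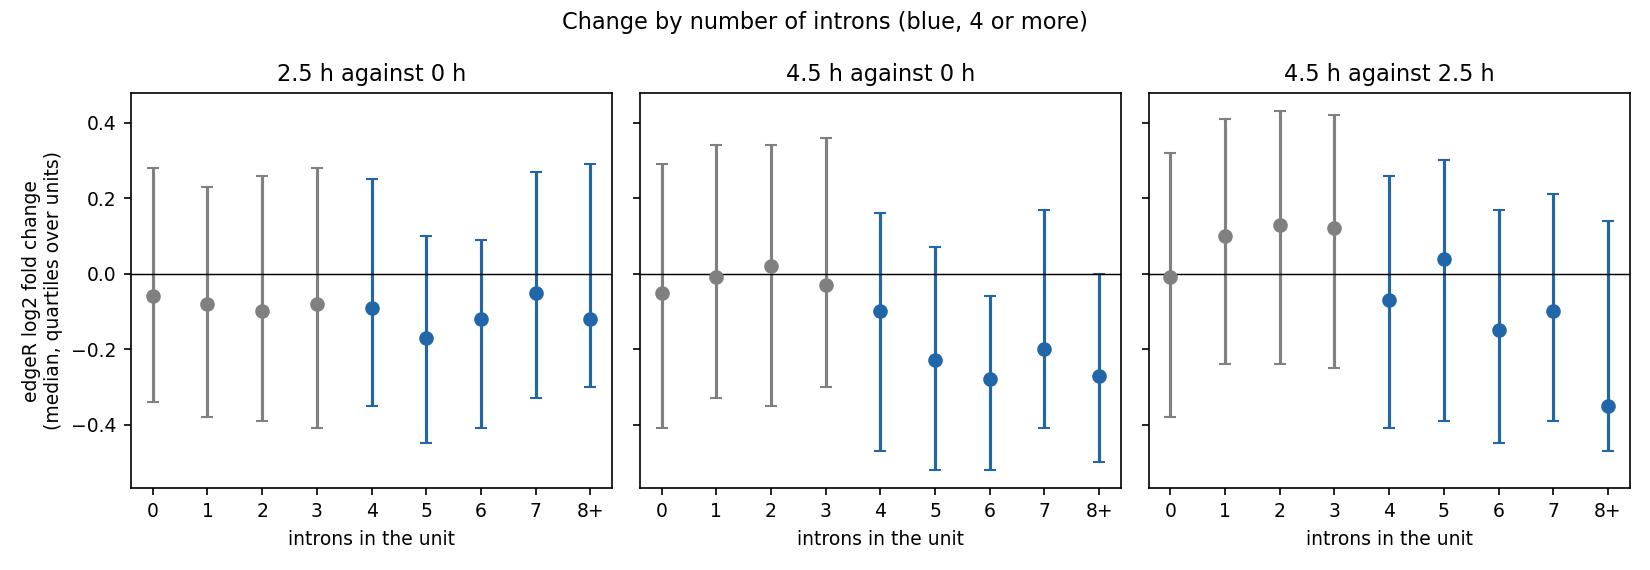
Median and quartiles over units of the log2 change, by number of introns, in 3 comparisons (blue, 4 or more introns; grey, fewer). At 4.5 h against 0 h the blue medians lie between -0.28 and -0.10, and the quartile ranges overlap with those of the grey classes.

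Of the 4 members with the most introns, trt1 fell at 4.5 h and the others were not called. The trt1 unit, which encodes the catalytic subunit of telomerase and has 15 introns, stood at 61.6 and 69.1 CPM at 0 h, 54.0 and 53.5 at 2.5 h, and 44.7 and 42.1 at 4.5 h. Each later time lay below the one before it in both libraries, and the log2 change was -0.28 at 2.5 h (adjusted p = 0.230) and -0.59 (SE 0.15, adjusted p = 0.0412) at 4.5 h. The histone deacetylase gene clr6 (13 introns) had log2 values of -0.18 and 0.04, the mitochondrial GTPase gene gem1 (12 introns) 0.57 and 0.19, and the potassium transporter gene trk2 (11 introns) -0.31 and -0.14, and none of the 3 was called in any comparison.

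Member units ran from 664 to 7289 bases, with a median of 1992.5, against 1651.5 in single-intron and 1806.5 in intronless units. They were split by rank of length into short (664 to 1668 bases), middle (1673 to 2480) and long (2497 to 7289) units. At 4.5 h, 3 of the 97 long units rose and 21 fell (21.6%), with a median log2 change of -0.24. Of 97 short units 3 rose and 8 fell, and of 96 middle units 1 rose and 8 fell. Above the same lower limit of length, 14 of 215 single-intron units (6.51%) and 56 of 564 intronless units (9.93%) fell at 4.5 h, with medians of -0.04 and -0.09. Those groups had no upper limit and reached 11358 and 16263 bases. Among the long members 23 were called lower at 4.5 h with DESeq2, which called 11.6% of all units lower, and their median was -0.32. Without the first or the second 0 h library the median of long members was -0.33 and -0.19, and without either 2.5 h library it was -0.25. Long members were not read out without a 4.5 h library, where hardly any of the 290 members was called. Long units with fewer introns were not compared in these fits. For short members the median at 4.5 h was 0.17 without 0 h replicate 1 and -0.34 without 0 h replicate 2.

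The relation of change to length across all members did not hold from library to library. Spearman's rho between log2 change and length over 290 members was 0.11 at 2.5 h, -0.11 at 4.5 h and -0.22 from 2.5 to 4.5 h. Between the 2 libraries of one time, replicate 1 minus replicate 2, it was -0.54 at 0 h, -0.59 at 2.5 h and -0.07 at 4.5 h. So rho was farther from 0 between the replicates of 0 h and of 2.5 h than in any of the 3 fitted comparisons. In single pairs of libraries rho ran from -0.34 to 0.48 for 2.5 h against 0 h and from -0.37 to 0.15 for 4.5 h against 0 h. Libraries with the same replicate number gave 0.21 and -0.08 at 2.5 h, and 0.14 and -0.36 at 4.5 h. For 4.5 h against 2.5 h all 4 values were negative, from -0.36 to -0.06. Without 0 h replicate 1 the fitted rho was -0.24 at 2.5 h and -0.37 at 4.5 h, and without 0 h replicate 2 it was 0.37 and 0.15.

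**Figure D4:**
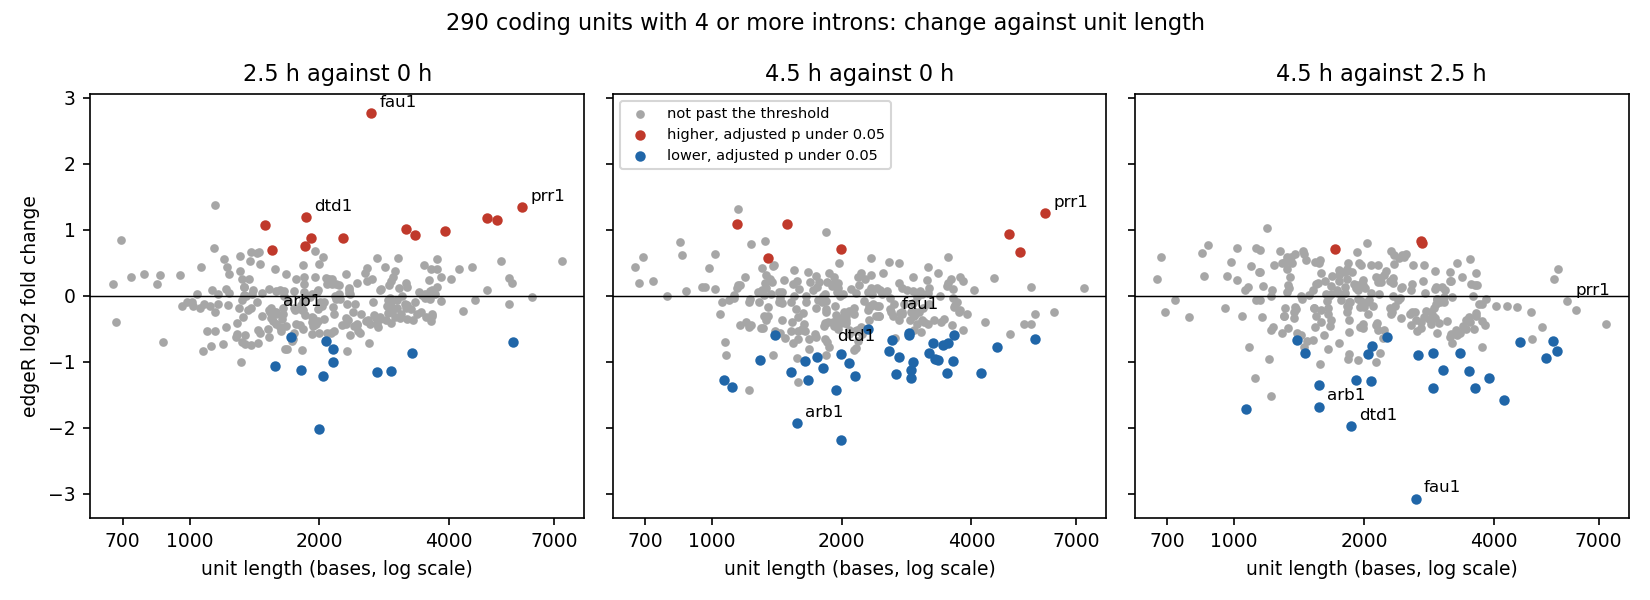
Log2 fold change of each of the 290 members against unit length in bases (log axis) in 3 comparisons, coloured where the adjusted p was under 0.05. The 21 long units that fell at 4.5 h stand at 2497 bases or more in the middle panel.

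Replicates of the shortest named members stood farther apart than those of the longest. The shortest, vma10 (664 bases), a subunit of the vacuolar proton pump, stood at 21.6 and 8.64 CPM at 0 h, and qcr10, of respiratory complex III, at 24.6 and 9.82. Both had replicate 1 more than 2-fold above replicate 2 at 0 h, and neither was called, nor was pat10 (677 bases). The longest, sip1 (7289 bases), at 467 and 438 CPM at 0 h, and stt4, a phosphatidylinositol 4-kinase gene of 6212 bases, at 639 and 639 CPM, had replicates close together and were not called either.

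The deposited splicing time, a fitted kinetic value of the authors used here by rank only, was available for 286 members. Change had a weak rank correlation with it, whose sign turned with the 0 h library left out. Spearman's rho was 0.08, 0.01 and -0.08 in the 3 comparisons, while between the 2 libraries of one time it was 0.42 at 0 h, 0.29 at 2.5 h and 0.03 at 4.5 h. Without 0 h replicate 1 rho was 0.28 at 2.5 h and 0.21 at 4.5 h, and without 0 h replicate 2 it was -0.11 and -0.19. Of 93 fast members 12 fell at 4.5 h and 1 rose, of 96 middle ones 10 fell and 5 rose, and of 97 slow ones 14 fell and 1 rose. Splicing time and length are themselves related among the members (rho = -0.40), as are length and deposited half-life (rho = -0.48).

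The fastest and slowest members by name were not called in any comparison. Among the fastest were par2, a regulatory subunit of protein phosphatase 2A, at 109 and 126 CPM at 0 h, 168 and 148 at 2.5 h and 117 and 131 at 4.5 h, ice2, and vps35, a subunit of the retromer. Among the slowest, vma3, the proteolipid subunit of the vacuolar proton pump, stood at 163 and 52.5, then 83.6 and 65.6, then 119 and 85.2 CPM. The 0 h pair of vma3 spans all later values. The other slow members were SPCC18.10, a pyridoxine kinase gene, and SPAC4H3.06, uncharacterised, which stood at 8.39 and 2.31 CPM at 0 h. Each of these last units has 4 introns in the deposited annotation, and RefSeq does not hold intron 4 of either with the same ends. In SPCC18.10 that intron reads CT to AC. Their membership therefore rests on an intron that is in doubt.

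**Figure D5:**
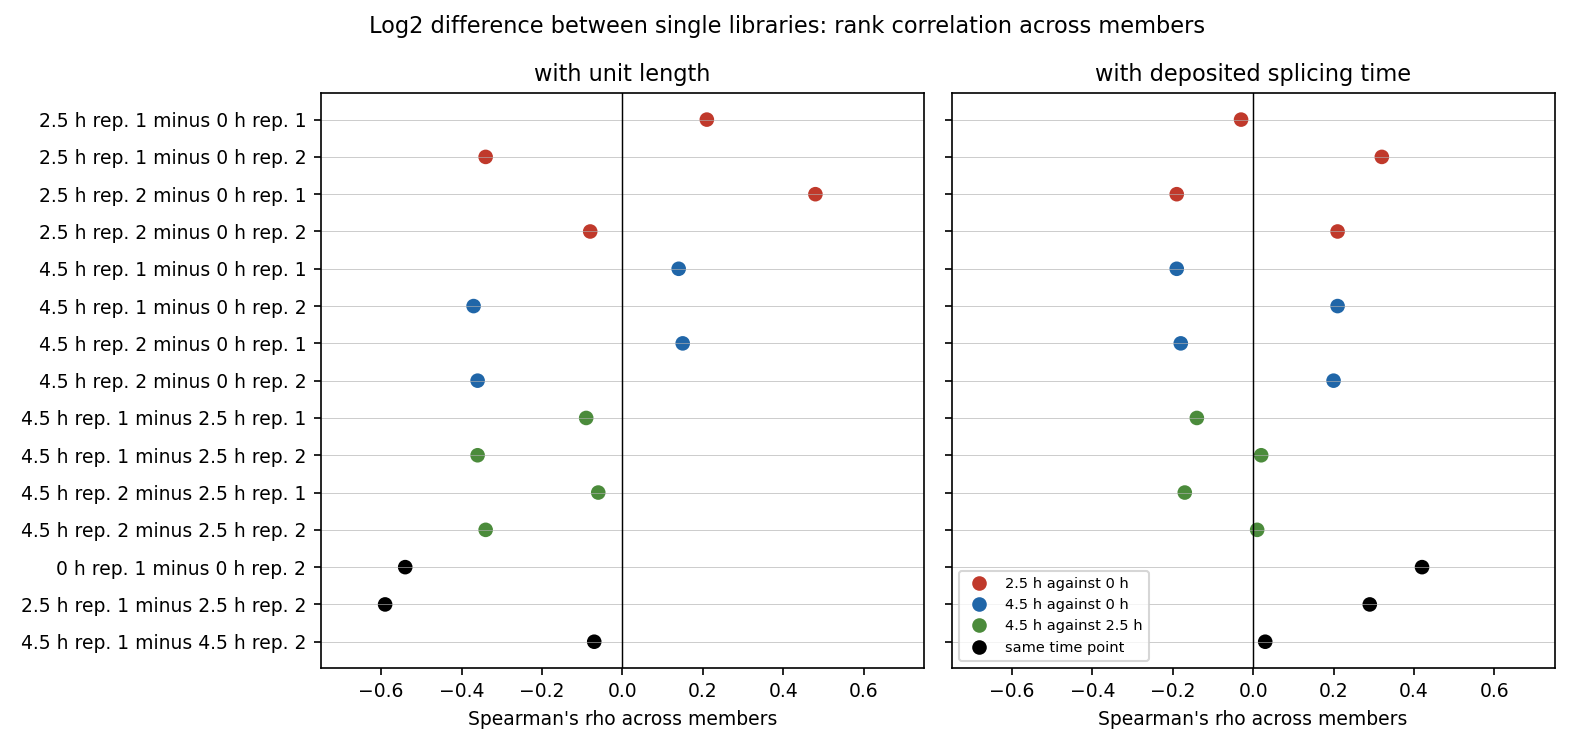
Spearman's rho across members between the log2 difference of 2 libraries and unit length (left, 290 members) or deposited splicing time (right, 286 members), for each pair of libraries. The pairs of one time point (black) reach -0.59 and 0.42, farther from 0 than any pair of different times.

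The deposited synthesis time, ranked in the same way, moved less with the replicate. Its rho with change was 0.17 at 2.5 h, -0.24 at 4.5 h and -0.38 from 2.5 to 4.5 h over 286 members, and 0.07, -0.07 and 0.04 between the replicates of the 3 times. From 2.5 to 4.5 h it was -0.36 over 894 single-intron units and -0.45 over 2061 intronless units, so the relation was also present in units with fewer introns. The length of the longest intron had rho of -0.23, 0.10 and 0.32 with change, and the share of introns holding CTAAC had -0.13, 0.13 and 0.24. Over 897 single-intron units the intron length had rho of -0.01, 0.04 and 0.06. For these intron features no rho between replicates was computed, so how far they move with the replicate was not tested. All these points come from the same 6 libraries.

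A coding unit on the other strand overlapped 105 of the 290 members, a split made after the values had been seen. At 2.5 h, 10 of those 105 rose (9.52%) and 0 fell by edgeR, where 12.3% of all units rose and 5.11% fell. By an unadjusted p under 0.05, 8 of the 105 had a lower value, and their median log2 change was 0.00. Of the 185 without such an overlap 3 rose (1.62%) and 12 fell (6.49%), with a median of -0.16. Where at least 50% of the member was overlapped, 5 of 24 rose, 0 fell (also 0 at an unadjusted p under 0.05) and the median was 0.28. With DESeq2 the 105 units had 10 higher (9.52%) and 4 lower (3.81%), beside 12.9% and 8.61% of all units. Without the first or the second 0 h library their median was 0.15 and -0.16, beside 0.02 and -0.01 over all units. At 4.5 h, 5 of the 105 rose (4.76%) and 10 fell (9.52%), with a median of -0.10, where 10.1% of all units rose and 7.80% fell. Of the 24 units 2 rose and 2 fell (8.33% each), with a median of -0.01. The same split in intronless units gave 68 rises and 12 falls among 476 overlapped units, and 110 and 104 among 1586 others, a difference in the same direction. Whether the counts keep the strands apart was checked on 256 noncoding units wholly inside a coding unit on the other strand: their median level per base at 0 h was 2.63% of that of the outer unit, with quartiles of 0.617% and 10.6%. A low level would also arise if reads in overlapping stretches were left out of the counts. The check cannot tell these apart.

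Splicing factors among the members were read against a list of 90 symbols of pre-mRNA splicing factors. Of 83 units of the list that were tested, 6 (7.23%) rose and 5 (6.02%) fell at 2.5 h, where 12.3% and 5.11% of all units did. At 4.5 h 10 (12%) rose and 1 (1.20%) fell, where 10.1% and 7.80% of all units did. From 2.5 to 4.5 h 9 (10.8%) rose and 1 (1.20%) fell, where 3.34% and 6.91% of all units did. Of ORF-TU units, 7.28% rose and 6.18% fell at 2.5 h, and 7.23% and 8.67% at 4.5 h. From 2.5 to 4.5 h 3.93% of them rose and 6.23% fell. The median log2 changes of the list were -0.06, 0.21 and 0.32. Among the units tested, 10 are members: prp3, prp17, prp39, spf38, cdc5, srp2, sap114, lsm3, dim1 and rsd1. The values of prp3, prp17 and cdc5 are given above. The spf38 unit, of the U5 small nuclear ribonucleoprotein, stood at 38.7 and 36.6 CPM at 0 h, 41.4 and 38.0 at 2.5 h, and 23.9 and 26.1 at 4.5 h, and fell at 4.5 h by 0.59 on the log2 scale (SE 0.16, adjusted p = 0.0489). It is the single unit of the list that fell at 4.5 h, and the other 6 members on the list were not called in any comparison.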

How the data were processed

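Per the submitters' processing notes, reads were aligned with STAR 2.3.0 and handled with SAMtools on ASM294v2. How reads were counted per unit, and with which strand setting, is not given in the sources used here. Whole-number counts per transcription unit were deposited by the authors, with a table of unit coordinates, introns and fitted kinetic values. Those kinetic values are treated as a deposited score with no stated unit, used by rank only. Counts were taken as deposited, filtered with filterByExpr and scaled by TMM, and tested with edgeR 4.0.16 in R 4.3.3 by a robust quasi-likelihood fit on time point over all 6 libraries, which leaves 3 residual degrees of freedom. Adjusted p-values are Benjamini-Hochberg over 5208 tested units, two-sided, with a threshold of 0.05. SE is the size of the log2 change divided by the square root of the quasi-F. Library pairs use log2(CPM + 0.5). CPM ± SD over 2 libraries is not printed because both values are. Depth was 11525663 to 35673601 counts per library. The shallowest sets the floor: 3 counts there are 0.26 CPM.

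Named members have a symbol, at least 50 counts on average, libraries that do not overlap between the times, and an adjusted p under 0.05, and are the 8 largest rises and falls at each time against 0 h and the 5 from 2.5 to 4.5 h, with the members at the extremes of intron number, length and splicing time. The members and lists were chosen with earlier results of these data known. Of the 290 loci, 289 matched RefSeq and 267 had a symbol. The reference genome carries a later build label (ASM294v3) than the notes, and it was used by the files' coordinates because 99.7% of member introns had GT and AG at their ends in it. The fit was also run on simulated data, the outcome of which is not reported here. Alternatives were DESeq2 1.42.0, other scalings and filters, a replicate block, 2 time points at a time, leaving out each library, and leaving out overlapped units.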

Additional observations from a re-analysis of the deposited data

Results flagged for a closer look

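For 7 flagged members the change against 0 h had opposite signs at 2.5 h and at 4.5 h, and the difference between the times itself passed edgeR's test. These are fau1 (log2 4.5 h against 2.5 h -3.07), dtd1 (-1.97), rev7 (-1.72), rad50 (-1.58), klf1 (-1.40), alp1 (-1.25) and wdr74 (0.71). The 2.5 h and 4.5 h libraries of these units did not overlap, which the naming rule had required of fau1, dtd1, rev7, rad50 and wdr74. Of the 7, fau1, dtd1 and alp1 were called higher at 2.5 h, wdr74 was called lower at 2.5 h, and rev7, rad50 and klf1 were called lower at 4.5 h. The 7 are not all such members. Both conditions were also met by cdc5 (log2 -0.33 at 2.5 h, 0.50 at 4.5 h and 0.83 between them) and by spf38 (0.08, -0.59 and -0.67).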

How the results depend on the processing

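The members' median change kept its sign in all 3 comparisons under each alternative fit. Its sign was not kept in pairs of single libraries. Pairs with 0 h replicate 1 gave negative medians, from -0.33 to -0.19, while pairs with 0 h replicate 2 gave positive ones, from 0.01 to 0.08. Of 494 alternative values for 38 named calls 338 stayed past the threshold, 156 did not, and 0 changed direction. Called members (25, 44 and 28 at 2.5 h, at 4.5 h and from 2.5 to 4.5 h) were 43, 61 and 52 with DESeq2, 11, 12 and 110 with only the 2 time points compared, and 15, 29 and 15 of 185 without units overlapping a coding unit on the other strand. Leaving out single libraries gave 0 to 100 calls at 2.5 h, 1 to 109 at 4.5 h and 0 to 108 from 2.5 to 4.5 h, high without a 0 h library and low without a 2.5 h or 4.5 h one; the lone library is then assumed to vary like the other groups. The medians ran from -0.23 to -0.06, from -0.30 to -0.12 and from -0.12 to -0.04. The last was -0.14 with library totals. The rank correlation of change with length ran from -0.24 to 0.37, from -0.37 to 0.15 and from -0.35 to -0.07, and that with splicing time from -0.11 to 0.28, from -0.19 to 0.21 and from -0.16 to 0.01, with 0.02 for the last among non-overlapped units. The cause of these shifts was not tested. With the replicate block, 32, 49 and 29 members were called. Deviations of same-numbered libraries correlated at 0.49, 0.22 and 0.12 over units, but with 2 numbers a pairing cannot be settled. For 2 libraries a time, the spread of each unit rests on few values, and a miss of the threshold does not show that a unit was unchanged.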
